A study of Mus musculus with 72 samples.

Results

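The cytosolic ribosomal protein genes were taken from the deposited expression table by symbol, as RPL or RPS followed by a digit together with RPLP0, RPLP1, RPLP2 and RPSA, leaving out the RPS6 kinases and entries marked as pseudogenes by a -PS ending. This gave 85 of the 16835 listed genes: 43 proteins of the large subunit, 3 of the P stalk, 30 of the small subunit, and 9 paralogs and like-named genes. The first 3 classes are called the 76 core members below.

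The libraries came from BALB/c mice carrying tumors of CT26, a mouse colon carcinoma cell line of the same strain. Tumors and spleens were collected on day 23 and tumor-draining lymph nodes on days 16 and 23, with 18 libraries for each tissue and day. Every set of 18 held 3 mice of each of 6 treatment arms. In the labels, the arm taken here as the reference is Isotype, the arms with TS are TS/PD1/CYTO and TS/CYTO, and the others are CYTO, PD1 and their combination PD1/CYTO. The labels do not spell out CYTO or TS, and the age and sex of the mice are not given in the sources used here. Bulk polyadenylated RNA was sequenced and each value is a log2(TPM + 1) level, where TPM, the transcript share of a library on a fixed total, is already corrected for transcript length. All mice carried tumors, so there is no tumor-free tissue in any comparison. The tumors are grafts of 1 cell line together with the host cells within them. In bulk tissue, fewer cells of a type and less RNA per cell cannot be told apart.

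A ribosome is built of ribosomal RNA and a nearly fixed set of proteins, most of which occur in a single copy in each of its subunits. Cells coordinate the synthesis of these proteins largely through translation: the messenger RNAs begin with a C followed by a run of pyrimidines, the 5′ terminal oligopyrimidine motif, through which the mTOR pathway and the RNA-binding protein LARP1 control their use. The messages are among the most abundant in dividing cells, and a few of the genes have paralogs that are expressed in particular tissues.

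Of the 85 members, 81 were above the lowest deposited value of 0.01 in every one of the 72 libraries. RPL10L, a paralog of RPL10 known from the testis, was listed at that floor in all 72 libraries. RPL3L, the paralog of RPL3 used in heart and skeletal muscle, was at the floor in all libraries but 1. The 2 remaining members that reached the floor, RPL39L and RPS4XP3, are described with the paralogs. Reads of 60 members could have been split with processed copies, because the mouse annotation names at least 1 pseudogene for each of them and as many as 24 for RPL31 and RPS12. Single levels and small differences between members are uncertain for this reason.

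Of the 18 day 16 nodes, 3 stood apart from the other 15, and leaving them out was not planned beforehand. The PD1 node of mouse 16 had a core mean of 9.94 with an adipocyte marker mean of 10.2 and a B cell marker mean of 3.93. The TS/PD1/CYTO node of mouse 34 had the lowest core mean of all, 9.36, with an adipocyte mean of 9.91 and a muscle mean of 10.3, and it is the library in which RPL3L was listed, at 6.01. The PD1/CYTO node of mouse 22 had a core mean of 10.97, within the others' range, but a B cell mean of 0.63, and the library it correlated with best was a tumor (r = 0.989 over genes). The other 15 nodes ran from 10.71 to 11.04 in core mean, from 7.14 to 8.04 in the B cell list, from 3.62 to 8.66 in the adipocyte list and from 0.71 to 1.07 in the muscle list. Day 16 results are given with and without these 3 libraries. No 2 libraries held identical values. All nodes were of sequencing batch 2 and all spleens of batch 4, so the spleen and its batch cannot be told apart. Of the tumors, 14 were kept in RNAlater and sequenced in batch 3, while 4 were fresh-frozen and of batch 2, so that storage and batch of the tumors cannot be told apart.

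The stretch around the annotated start of transcription is shown for the paralog pairs, in which the results differ most, and for 3 core members described with the tumor comparison. Each covers 10 bases before to 20 bases from the RefSeq start on GRCm38.p6, written 5′ to 3′ on the strand of the gene, and capitals mark the longest run of C or T in the window.
RPS27: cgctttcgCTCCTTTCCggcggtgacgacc
RPS27L: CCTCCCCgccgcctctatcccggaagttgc
RPL39: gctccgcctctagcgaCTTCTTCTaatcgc
RPL39L: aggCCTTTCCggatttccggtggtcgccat
RPL22: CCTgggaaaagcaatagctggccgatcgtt
RPL22L1: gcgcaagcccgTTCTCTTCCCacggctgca
RPL28: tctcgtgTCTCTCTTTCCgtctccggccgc
RPL41: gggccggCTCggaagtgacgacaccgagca
RPSA: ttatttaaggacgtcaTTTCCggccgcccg

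RPS27 lies at chr3:90213629-90213658 on the minus strand and RPS27L at chr9:66946076-66946105 on the plus strand. RPL39 lies at chrX:37085203-37085232 on the minus strand and RPL39L at chr16:10170218-10170247 on the plus strand. RPL22 lies at chr4:152325716-152325745 and RPL22L1 at chr3:28805498-28805527, both on the plus strand. RPL28 lies at chr7:4792955-4792984 on the plus strand, RPL41 at chr10:128549149-128549178 on the minus strand and RPSA at chr9:120127756-120127785 on the plus strand. A run of at least 7 bases of C or T within the window was found for 29 of the 64 members with a RefSeq promoter (45.3%), for 26 of 56 core members (46.4%) and for 3 of 8 paralogs and like-named genes (37.5%). Among all 27025 RefSeq promoters the share was 17.9%. Of the 9 windows shown, those of RPL22, RPL41 and RPSA had no such run, which says only that these letters are not within this stretch of the annotated start. A run was counted anywhere in the window. Those of RPS27L and RPL39L begin at -10 and -7 and end before the annotated start. The shares are therefore not counts of the 5′ terminal motif. The 84 members with a GENCODE position lie on 19 chromosomes, 14 of them on chromosome 7, so the genes are not neighbours as a class.

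The members made up 25.7% ± 3.88 (SD, n = 18) of all TPM in tumors, with a range of 20.2 to 35.7%. Their share was 12.1% ± 1.23 (SD, n = 18) in spleens, with a range of 9.49 to 14.8%. Day 23 nodes gave 16.1% ± 1.40 (SD, n = 18) and a range of 12.7 to 17.5%, and day 16 nodes 15.5% ± 3.15 (SD, n = 18) and a range of 5.82 to 18.9%. Tumors lay above every spleen and every node in this share. The deposited table lists only part of the genes behind TPM, and between 408867 and 596061 of the 1000000 TPM of a spleen were listed. As a share of the listed TPM alone the members took 30.5% in tumors, 23.6% in spleens, 19.6% in day 23 nodes and 18.7% in day 16 nodes, which puts spleens above nodes rather than below them.

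The mean over the 76 core members was lowest at 11.16, median 11.49 and highest at 11.81 in the 18 tumors. In spleens it ran from 10.04 through a median of 10.44 to 10.66, and in day 23 nodes from 10.48 through 10.84 to 10.91. The day 16 nodes ran from 9.36 through 10.83 to 11.04. Every tumor lay above every other library in this mean, while spleens and nodes overlapped.

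**Figure D1:**
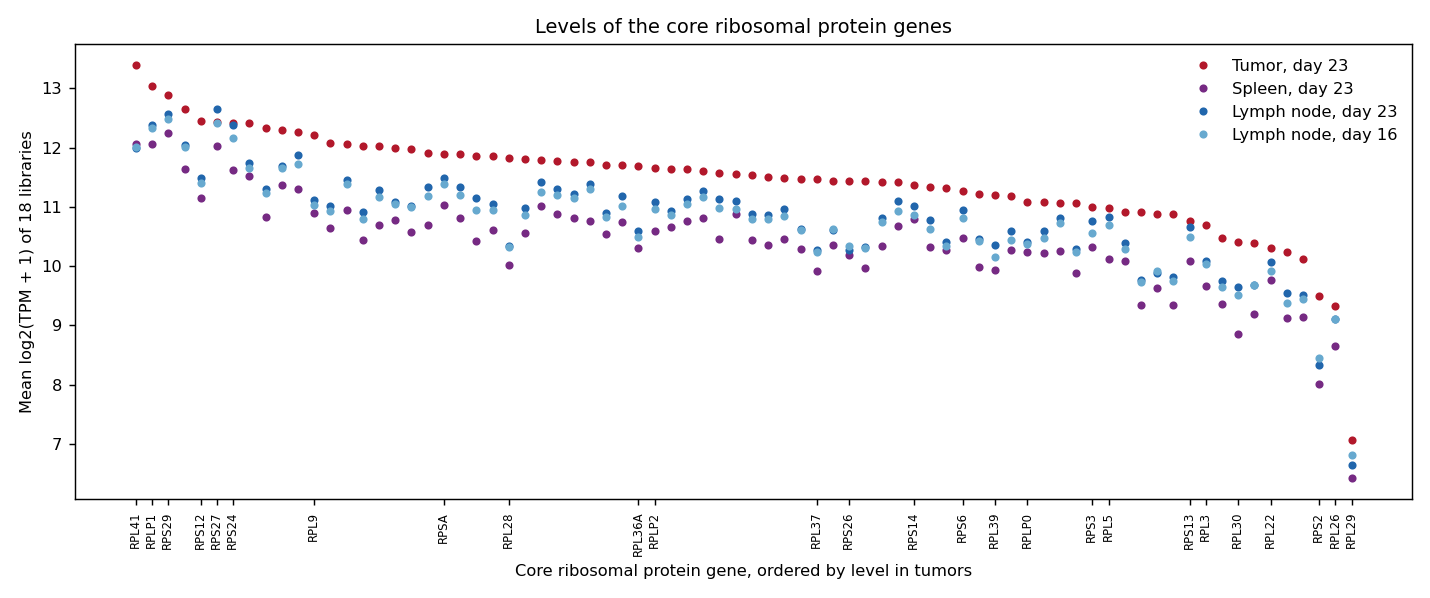
Mean log2(TPM + 1) level over 18 libraries (vertical axis, 1 point for each tissue and day) of the 76 core members, ordered along the horizontal axis by their level in tumors from RPL41 to RPL29, with a selection of names. The tumor points average 11.45 and lie above the node and spleen points for all members but RPS27, whose day 23 node point is the highest.

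RPL41, the shortest protein of the large subunit, had the highest mean level in tumors, where it ran from 12.76 through a median of 13.49 to 14.55. In day 23 nodes it ran from 11.78 through 12.01 to 12.17 and held rank 6 of the 85, behind RPS27 at rank 1. RPLP1, an acidic protein of the P stalk that recruits elongation factors, had means of 13.04, 12.07 and 12.38 in tumors, spleens and day 23 nodes. RPS29, a small-subunit protein that binds zinc, had 12.89, 12.25 and 12.57 in the same tissues. The highest members in tumors also included RPS12 at 12.45. The spread between tumors of RPL41 (0.52, SD) exceeds the distance of its mean from the next in order, RPLP1, so that neighbours at the top of the order do not differ beyond their spread.

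At the lower end of the core, RPL29 had mean levels of 7.07 in tumors, 6.42 in spleens and 6.65 in day 23 nodes. RPL26, which lies near the exit of the peptide tunnel, had 9.33, 8.66 and 9.11, and RPS2, at the messenger entry site of the small subunit, had 9.49, 8.01 and 8.33. These 3 had the lowest core levels in tumors, although the ribosome holds 1 copy of each protein. The annotation names 3 pseudogenes for RPL29, 6 for RPL26 and 11 for RPS2, and whether this lowers the deposited values was not tested. The order of the 76 core members was nearly the same across tissues: Spearman's rho between mean levels was 0.89 for tumors and day 23 nodes, 0.97 for spleens and nodes, 0.89 for tumors and spleens, and 0.995 for the nodes of the 2 days. Of the 10 highest members, 9, 10, 9 and 10 were shared in these pairs. These are descriptions across genes that share libraries, annotation and transcript lengths.

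After subtracting the core mean of each library, the median SD of a core member was 0.21 in tumors, 0.08 in spleens and 0.05 in day 23 nodes. Members thus kept their proportions more closely among nodes than among tumors. The nodes shared a single batch and storage, while the tumors mixed fresh-frozen and RNAlater samples of different batches. The part of storage and batch in the wider spread of tumors was not tested. In tumors the widest were RPS3 (0.60), RPS14 (0.58), RPL9 (0.54), RPL29 (0.47) and RPL5 (0.45). Each of these is among the members called between the storage groups of the tumors, as described below. In spleens the widest were RPL41 (0.23) and RPS27 (0.21). The median SD of day 16 nodes was 0.10, and 0.05 without the 3 nodes that stood apart.

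The first comparison was between the tumor and its draining node on day 23, averaged over the 6 arms. It was tested with limma, a linear model that moderates each gene's variance, on all genes above the floor in at least 3 libraries, with Benjamini-Hochberg adjustment and a threshold of 5%. Of the 83 members tested, 77 were called, 76 higher in tumors and 1 lower. The background was high, with 82.2% of 12984 genes called, of which 3460 were higher and 7213 lower in tumors. The count of members called is therefore of little weight alone, and their direction is set beside that of all genes: the core median was a difference of 0.62 on the log2 scale, against -0.40 over all genes tested. Under quantile normalization 60 members were called, 48 higher and 12 lower, beside 10689 of 12984 genes. The core median was then 0.23, against -0.01 over all genes. In 53 of the 83 members every tumor lay above every day 23 node, and 39.8% of all genes tested had groups that did not overlap in either direction.

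**Figure D2:**
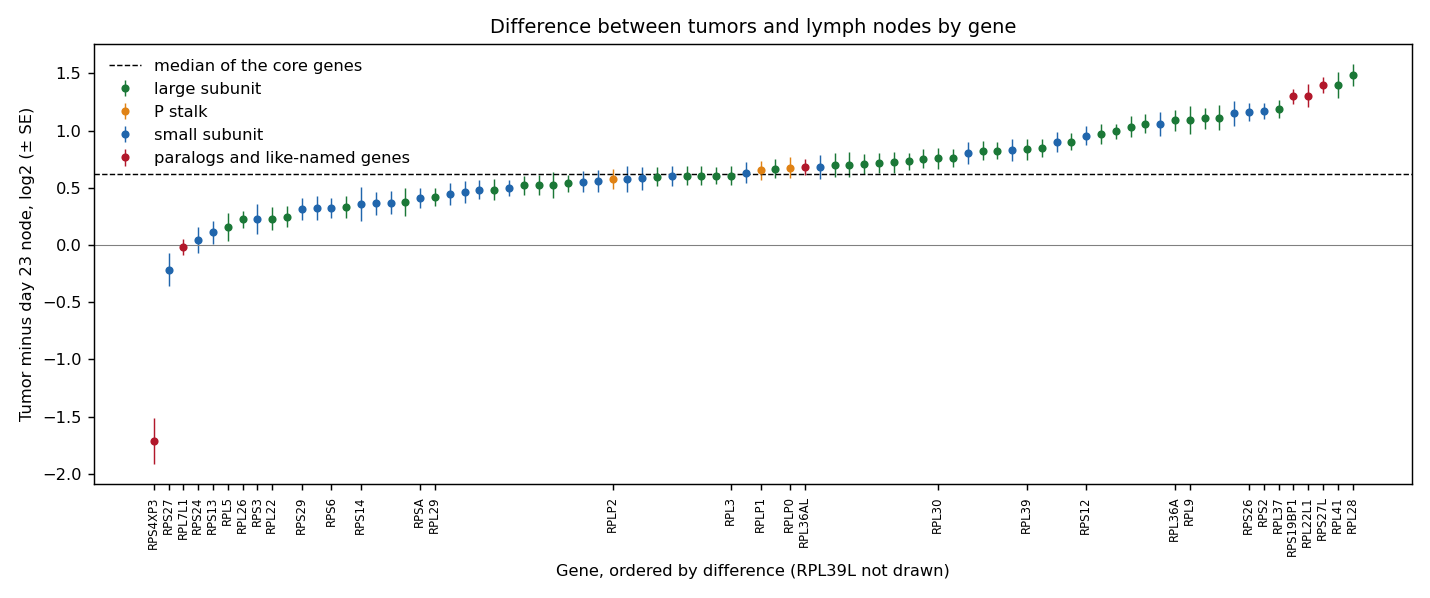
Difference between tumor and day 23 node (vertical axis, log2 scale, points with bars of 1 SE) of each tested member except RPL39L, ordered by difference, coloured by class and with a selection of names, with the core median of 0.62 as a dashed line. The members run from RPS4XP3 at -1.71 to RPL28 at 1.49, and RPL39L, at 7.53, is left off.

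Of the 43 large-subunit genes, 42 were higher in tumors, with a median difference of 0.72 and a range of 0.16 to 1.49. RPL28 had the largest core difference: it ran from 11.39 through a median of 11.64 to 12.66 in tumors and from 10.11 through 10.33 to 10.51 in day 23 nodes. All 18 tumors were above all 18 nodes, and the difference was 1.49 ± 0.10 (SE; limma adjusted p = 4.35e-20). RPL41 followed with 1.40 ± 0.11 (limma adjusted p = 1.93e-16), again with every tumor above every node. RPL37 was higher by 1.19 ± 0.08 and RPL36A by 1.09 ± 0.09. RPL3, a protein of the peptidyl transferase region, was higher by 0.61. RPL5, which with RPL11 and the 5S RNA forms the particle that binds MDM2, was the exception among the 43, at 0.16 (limma adjusted p = 0.232).

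The 3 stalk genes RPLP0, RPLP1 and RPLP2 were higher by 0.68, 0.65 and 0.58. They form the flexible arm of the large subunit to which elongation factors bind, and each was called. These differences lie close to the core median of 0.62, and centred on the core mean RPLP1 and RPLP2 turn to -0.01 and -0.08.

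In the small subunit, 26 of 30 genes were higher in tumors, with a median of 0.53. RPS2 was higher by 1.17 ± 0.07 and RPS26, which contacts the messenger RNA at its exit, by 1.16 ± 0.08. RPSA, the laminin receptor precursor that sits near the messenger exit, was higher by 0.41, and RPS6, the substrate of the S6 kinases, by 0.32, but both turn to -0.12 and -0.16 under quantile normalization. Not called were RPS3 at 0.23 (limma adjusted p = 0.098), RPS13 at 0.11 (0.298), RPS24 at 0.04 (0.75) and RPS27 at -0.21 (0.162). RPS27 ran from 11.91 through 12.45 to 13.25 in tumors and from 12.14 through 12.68 to 12.92 in day 23 nodes, and the groups overlapped. It was thereby the member of highest mean level in day 23 nodes and the only core member with a difference below 0. Under quantile normalization the small subunit as a class is split, with 10 members called higher and 8 lower (median 0.05), while the large subunit remains at 30 higher and 3 lower (median 0.30).

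Among the paralogs and like-named genes, 7 were tested, of which 5 were higher in tumors and 1 lower. RPL39L is the paralog of RPL39, a small protein that lines the peptide exit tunnel, and in the mouse it is known from male germ cells. Its level in tumors ran from 8.28 through a median of 8.79 to 9.19. Day 23 nodes ran from 0.50 through 1.09 to 2.40, and 17 of 18 spleens were at the floor of 0.01 with the other at 0.08. No tumor overlapped with any spleen or day 23 node, and the difference from nodes was 7.53 ± 0.30 (SE; limma adjusted p = 1.93e-28), the largest of all members. Against spleens no fold is given because the gene is listed at the floor there.

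RPL39L is annotated at chr16:10170226-10174911 and no pseudogene named for it is in the annotation. RPL39 itself was higher in tumors than in day 23 nodes by 0.84 ± 0.09, from levels of 10.77 through 11.15 to 11.59 in tumors against 9.97 through 10.39 to 10.62 in nodes. Within a library, RPL39L minus RPL39 ran from -2.76 to -2.2 in tumors, with a median of -2.48. In day 23 nodes the difference ran from -9.80 through -9.34 to -8.02. This within-library difference of log2(TPM + 1) levels did not overlap between tumors and day 23 nodes. Among day 16 nodes RPL39L was at 8.02 in the PD1/CYTO node of mouse 22, at 5.14 in the PD1 node of mouse 16 and at 4.64 in the TS/PD1/CYTO node of mouse 34, while the other 15 ran from 0.01 through 1.21 to 3.47. The 3 nodes with the highest RPL39L are those that stood apart by the other markers.

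RPL22L1, the paralog of RPL22, ran from 9.66 through 10.11 to 11.08 in tumors, from 8.44 through 8.88 to 9.07 in day 23 nodes and from 8.33 through 8.60 to 9.02 in spleens. All tumors lay above all spleens and day 23 nodes, and the difference from nodes was 1.31 ± 0.10 (SE; limma adjusted p = 8.58e-17). RPL22, an RNA-binding protein of the large subunit that in the mouse represses Rpl22l1 and is needed for T cell development, was higher by only 0.23 ± 0.10 (limma adjusted p = 0.0267), and by -0.11 under quantile normalization. Within a library RPL22L1 lay at -0.32 through -0.19 to 0.23 relative to RPL22 in tumors. The same difference ran from -1.41 through -1.21 to -1.02 in day 23 nodes and from -1.25 through -1.18 to -0.98 in spleens. Tumors did not overlap with spleens or day 23 nodes in this difference. Among day 16 nodes the highest was -0.33, and without the 3 nodes that stood apart the range was -1.31 to -1.10.

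RPS27L, a paralog of RPS27 that is a target of p53, ran from 8.34 through 8.69 to 9.20 in tumors, from 7.10 through 7.32 to 7.51 in day 23 nodes and from 7.11 through 7.58 to 7.98 in spleens. It was higher in tumors than in nodes by 1.40 ± 0.07 (SE; limma adjusted p = 2.74e-24) while RPS27 was not. Relative to RPS27 within a library it lay at -4.19 through -3.68 to -3.26 in tumors and at -5.76 through -5.36 to -4.69 in day 23 nodes, with no overlap. Spleens spanned -5.28 through -4.50 to -3.55 and overlapped with both.

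The pair RPL36AL and RPL36A showed the opposite order. RPL36AL was higher in tumors than in nodes by 0.68, less than the 1.09 of RPL36A, and within a library it lay at -1.96 through -1.72 to -1.34 in tumors and at -1.50 through -1.33 to -0.99 in day 23 nodes, with overlap. RPL7L1, a nucleolar relative of RPL7, did not pass the test at -0.02 (limma adjusted p = 0.844), with mean levels of 5.62 in tumors and 5.63 in day 23 nodes. Relative to RPL7 within a library it lay at -6.83 through -5.75 to -5.52 in tumors and at -5.35 through -5.25 to -5.11 in nodes, without overlap. RPS19BP1 binds RPS19 and is not a ribosomal protein. It was higher in tumors by 1.3 ± 0.07, from a mean of 4.18 in day 23 nodes to 5.48. RPS4XP3, for which no role is given here, was the 1 member lower in tumors, at -1.71 ± 0.20 (limma adjusted p = 3.43e-11). It ran from 0.01 through 0.76 to 2.07 in tumors and from 1.75 through 2.58 to 3.24 in day 23 nodes, and the ranges overlapped.

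**Figure D3:**
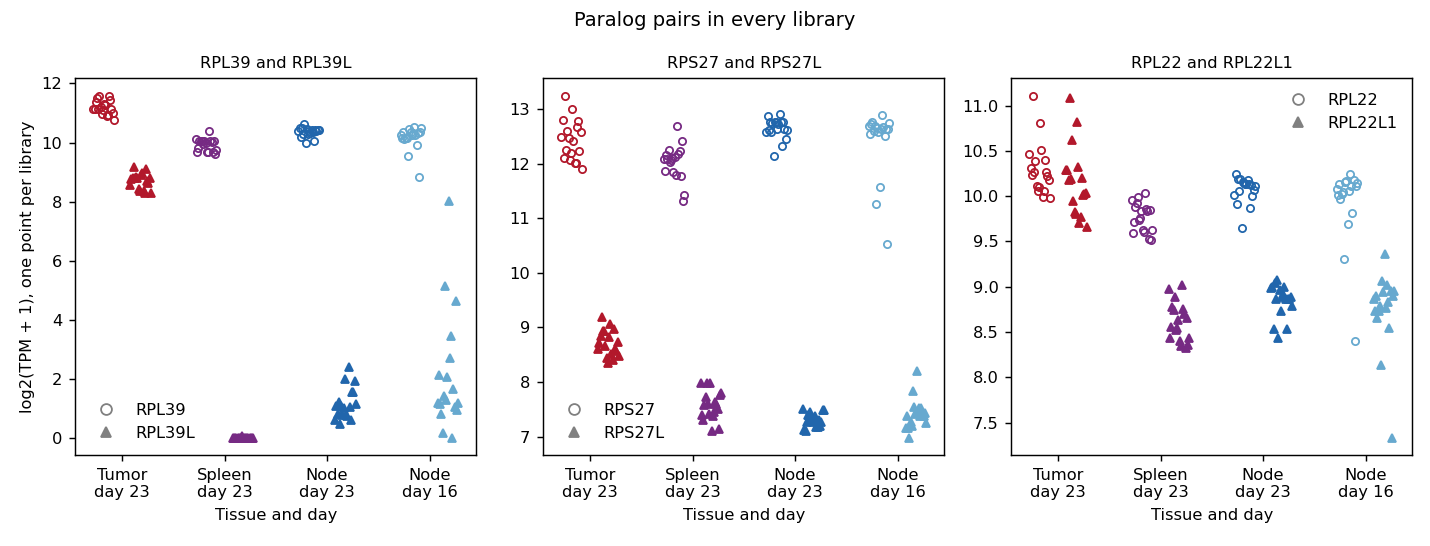
Level in log2(TPM + 1) of RPL39 and RPL39L, RPS27 and RPS27L, and RPL22 and RPL22L1 by tissue and day, 1 point per library, with open circles for the core member and triangles for its paralog. The triangles of RPL39L lie between 8.28 and 9.19 in tumors and at or near 0.01 in spleens, and those of RPL22L1 share the range of RPL22 in tumors but not in spleens.

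The 2 tissues also differ in their cells. The mean of 7 epithelial markers set for CT26 was only 0.86 to 1.82 in tumors, with 3 of the 7 at the floor in all of them, and 0.70 to 5.66 in day 23 nodes, so these markers do not single out the tumors. The mean level of 9 B cell markers was 0.06 to 0.50 in tumors, where 5 of the 9 were at the floor in all libraries, and 7.0 to 7.98 in day 23 nodes. The mean of 15 proliferation genes was 5.84 to 6.95 in tumors and 4.70 to 5.83 in day 23 nodes, without overlap. Their part in the member differences was not tested. Restricted to the 4 fresh-frozen tumors, which were sequenced in the same batch as the nodes, the core median was 0.71, beside an all-gene median of -0.70. Each of these tumors was the only tumor of its arm in that fit. The fit thus held no spread between tumors, and only sizes are given. RPL39L was then 7.65 higher, RPL41 1.93, RPL22L1 1.65, RPS27L 1.47 and RPL28 1.23. RPS6 was at 0.25 and RPS27 at 0.06.

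Genes that serve the ribosome were followed in the same comparison, on lists chosen with earlier results of these data known. Of 20 elongation and initiation factors and other translation partners, 16 were higher and 3 lower in tumors (median 0.50). Those of smallest p included NACA, a subunit of the nascent chain complex, at 0.99, EEF1D, an exchange factor of elongation, at 0.96, TPT1 at 0.97, and the helicase EIF4A2 at -1.68. Of 77 mitochondrial ribosomal protein genes, 57 were higher and 12 lower (median 0.40), and of 33 ribosome biogenesis genes 16 were higher and 10 lower (median 0.18). The biogenesis genes included GAR1 and NHP2, proteins of the box H/ACA particles that guide pseudouridylation, at 1.27 and 1.15, RRS1 at 0.86, and the RNA polymerase I subunit POLR1E at -0.94.

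Of 16 regulators, 4 were higher and 10 lower, with a median of -0.44 that turns to 0.09 under quantile normalization. EIF4EBP1, the translation repressor that mTOR phosphorylates, was higher in tumors by 3.41 ± 0.20. Its relative EIF4EBP2 was at -2.02 ± 0.15. TSC1, part of the complex that restrains mTOR, was at -1.56 and MYCN at -1.45. The median of the other 3 lists kept its sign when the listed TPM were rescaled and under quantile normalization.

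Between spleens and day 23 nodes the direction of the members depended on the scaling. On the deposited scale 76 of 83 members were called, 75 lower in spleens and 1 higher, beside 84.5% of all genes called and an all-gene median of -0.90. The core median was -0.42, so the members lay above the typical gene although they were lower. After rescaling the listed genes to the same sum, 63 members were called, 62 higher and 1 lower, and under quantile normalization 36, of which 31 were higher and 5 lower. Over all 12984 genes 10001 and 9422 were called under these scalings, with medians of -0.40 and -0.07. In 5 of 83 members every spleen lay below every node, against 51.6% of all genes with groups apart in either direction.

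**Figure D4:**
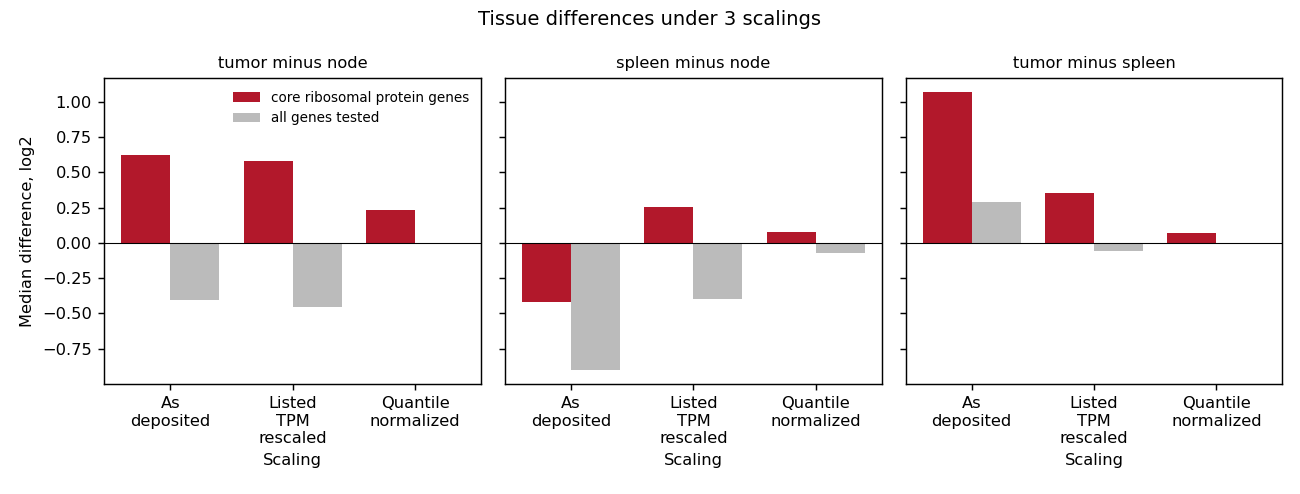
Median difference between tissues (vertical axis, log2 scale) of the core members and of all genes tested, as bars for the deposited values, rescaled listed TPM and quantile normalization, with 1 panel per comparison on day 23. The core bar of spleen minus node turns from -0.42 to 0.25 and 0.08, while those of tumor minus node and tumor minus spleen stay above 0.

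On the deposited scale RPL30 had the largest core difference at -0.78 ± 0.09 (SE, limma adjusted p = 2.69e-11), followed by RPS24 at -0.75, RPL12 at -0.73, RPL5 at -0.70 and RPS23 at -0.67. After rescaling 57 of the 76 core members were called higher in spleens and 0 lower, so none of these remained a called decrease. RPS27 was lower in spleens by -0.63 on the deposited scale and at 0.04 after rescaling, and RPL39 at -0.43 and 0.24. RPL22 was at -0.30, with 0.37 after rescaling and 0.11 under quantile normalization, and RPL22L1 at -0.23 (limma adjusted p = 0.0348), with 0.44 and 0.16. RPS19BP1 was at -0.14, with 0.50 and 0.83. RPS27L was the 1 member called higher in spleens on the deposited scale, at 0.26 ± 0.07 (SE, limma adjusted p = 0.000784). The mean of 12 erythroid genes was 6.33 to 8.04 in spleens and 0.62 to 1.35 in day 23 nodes, and that of 9 pancreas genes in spleens ran from 0.47 to 9.98. Their part in the differences was not tested.

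Among the other lists, 17 of 20 translation partners were lower in spleens than in day 23 nodes and none was higher (median -0.51, with 0.16 after rescaling and 0.04 under quantile normalization). Of the biogenesis genes 30 of 33 were lower and 1 higher (median -0.75, with -0.10 after rescaling and 0.07 under quantile normalization), and of the regulators 15 of 16 were lower (median -1.26, below 0 under both scalings). The mitochondrial ribosomal genes divided into 11 higher and 41 lower, with a median of -0.17 that turns to 0.50 after rescaling.

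Between tumors and spleens all 83 members tested were called, 82 higher in tumors, beside 74.7% of all genes. The core median was 1.07 against 0.29 over all genes. It fell to 0.35 after rescaling the listed genes, against -0.06 over all genes, and to 0.07 under quantile normalization. After rescaling 61 members were called, 58 higher and 3 lower, beside 9508 of 12984 genes. The values that follow are on the deposited scale unless another is named. In 67 of the 83 members every tumor lay above every spleen, and 27.3% of all genes were apart. RPL28 was higher by 1.80 ± 0.10 (SE; limma adjusted p = 1.61e-23), RPL34 by 1.60, RPS18 by 1.56, RPL37 by 1.55, RPL30 by 1.54 and RPL22L1 by 1.54 ± 0.10. RPL39 was higher by 1.27 and RPS27L by 1.14. The smallest differences were those of RPL7L1 at 0.31, RPS27 at 0.41, RPL22 at 0.53, RPS14 at 0.59 and RPS29 at 0.64, and these 5 fell below 0 under rescaling (-0.39, -0.30, -0.18, -0.13 and -0.07) and under quantile normalization (-0.14, -0.46, -0.22, -0.41 and -0.22). RPS4XP3 was lower in tumors, at -1.26 ± 0.20. Under quantile normalization 55 members were called, 40 higher and 15 lower, beside 9839 of 12984 genes, and the small-subunit median turned to -0.03.

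In the same contrast 18 of 20 translation partners, 29 of 33 biogenesis genes, 11 of 16 regulators and 64 of 77 mitochondrial ribosomal genes were higher in tumors. None, none, 1 and 5 were lower. The medians were 0.99, 0.87, 1.05 and 0.60. The first 3 kept their sign under rescaling and quantile normalization, while that of the mitochondrial ribosomal genes turned to -0.09 under rescaling.

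Between day 23 and day 16 nodes, 0 of 83 members were called with limma, beside 2.73% of all genes, and 4 were at an unadjusted p under 0.05. With the mouse as a block 1 member was called, lower on day 23, and likewise 1 with RNA integrity as a covariate. The core median was 0.09, and -0.04 without the 3 nodes that stood apart. RPL39L came closest, at -1.01 (limma adjusted p = 0.0501), and its highest day 16 values were those 3 nodes. RPS19BP1 was at -0.22 (0.0527). RPS27 and RPL39 were at 0.24 and 0.20 and did not pass. Without the 3 nodes 0 members were again called, beside 0.132% of all genes, and RPL29 had the smallest p at -0.22 (limma adjusted p = 0.176). The groups overlapped for all 83 members, as they did for all 12984 genes tested.

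The treatment arms were compared within each tissue and day, as the average effect of adding PD1, adding CYTO or adding TS to the same background, and as any difference between the 6 arms. The limma fit called 0 members in each of the 16 tests. In tumors the background was also 0% for PD1, CYTO, TS and any arm, and 11, 0, 7 and 8 of 83 members were at an unadjusted p under 0.05, beside 522, 98, 369 and 274 of 10913 genes. In spleens it was 0% for all 4 tests, with 1, 2, 0 and 1 of 82 members at such a p, beside 942, 2488, 186 and 730 of 11184 genes. In day 16 nodes it was 0% for all 4, with 2, 0, 0 and 0 members, beside 905, 82, 139 and 206 of 12480 genes. In day 23 nodes the background was 0.0164% for PD1, 0.0656% for CYTO, 0.00819% for TS and 0.0574% for any arm, with 0, 0, 1 and 0 members at such a p, beside 2207, 2533, 1151 and 1817 of 12203 genes. Each arm held 3 mice, so that a p above the threshold does not show that the arms were alike.

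**Figure D5:**
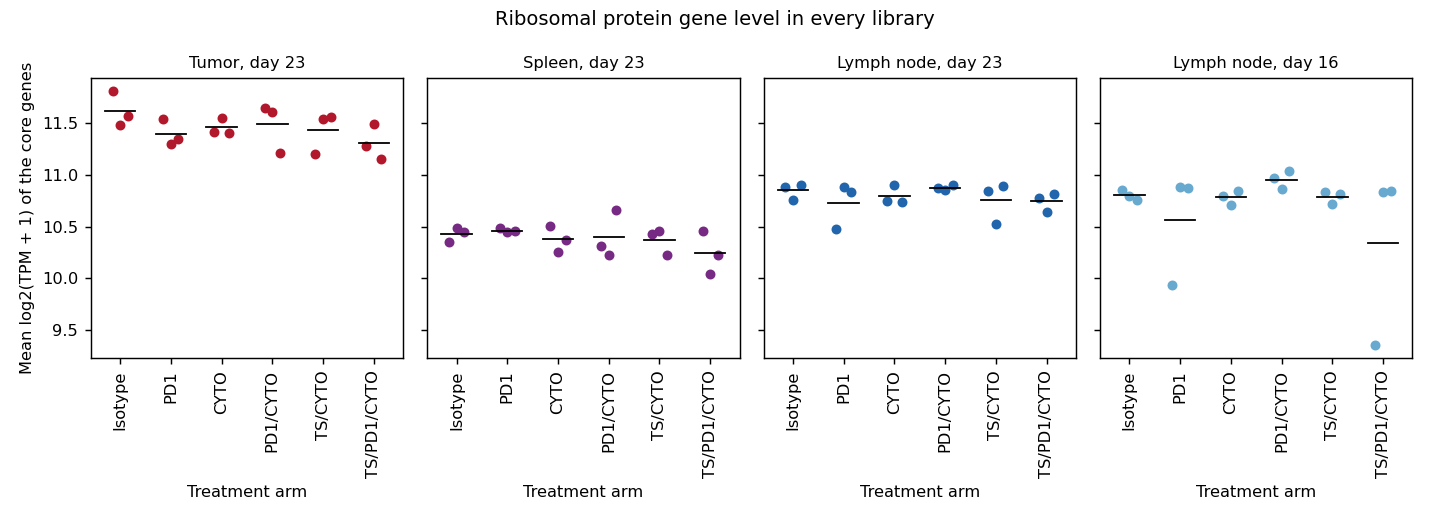
Core mean log2(TPM + 1) of every library by treatment arm, in each tissue and day, with 3 mice per arm and a line at their mean. Isotype tumors lie at 11.48, 11.57 and 11.81 and TS/PD1/CYTO tumors at 11.16, 11.28 and 11.50, with overlap, and the 2 lowest day 16 nodes are at 9.36 and 9.94.

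In tumors the core mean was 11.48, 11.57 and 11.81 with Isotype and 11.30, 11.35 and 11.54 with PD1. It was 11.41, 11.42 and 11.56 with CYTO and 11.22, 11.61 and 11.65 with PD1/CYTO. The arms with TS had 11.21, 11.54 and 11.56 with TS/CYTO and 11.16, 11.28 and 11.50 with TS/PD1/CYTO. Neighbouring arms overlapped, and the core median effect was -0.12 for PD1, -0.05 for CYTO and -0.08 for TS, beside all-gene medians of 0.14, 0.02 and 0.04.

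RPL29 had the smallest p for PD1 in tumors. It was 6.15, 6.96 and 7.08 in Isotype tumors and 7.43, 7.55 and 7.78 in PD1 tumors, without overlap; the Isotype tumor at 6.15 was the fresh-frozen one of that arm and all PD1 tumors were in RNAlater. It was 6.82, 7.21 and 7.23 in TS/PD1/CYTO against 7.0, 7.08 and 7.23 in TS/CYTO. The average effect was 0.35 ± 0.09 (SE; limma adjusted p = 0.666). RPL35A had -0.34 ± 0.13 and RPL22L1 -0.28 ± 0.12, at the same adjusted p. For TS in tumors RPS3, at the messenger entry channel, had -0.61 ± 0.23 and RPL9 -0.48 ± 0.17 (limma adjusted p = 0.999).

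RPL39L was called for no arm effect in tumors. It was 8.80, 8.83 and 9.19 with Isotype, 8.35, 8.43 and 8.79 with PD1, and 8.56, 8.78 and 8.79 with CYTO. With PD1/CYTO it was 8.37, 8.89 and 8.96, with TS/CYTO 8.28, 8.70 and 9.12, and with TS/PD1/CYTO 8.31, 8.63 and 8.81. The PD1 and CYTO tumors lay just below the Isotype tumors, the other arms overlapped with them, and the average PD1 effect was -0.17 ± 0.13 (limma adjusted p = 0.666). In spleens RPL39L was at the floor in every arm except for the 1 PD1 spleen at 0.08.

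In spleens the core median effects were -0.03 for PD1, -0.06 for CYTO and -0.08 for TS. RPS18 had the smallest p for CYTO, at -0.26 ± 0.11 (SE; limma adjusted p = 0.219), with 9.46, 9.50 and 9.62 in Isotype and 9.07, 9.14 and 9.50 in CYTO spleens. RPLP0 was at -0.17 ± 0.08 at the same adjusted p. In day 23 nodes the TS effect was below 0 in 76 of 76 core members, from -0.16 to -0.01 with a median of -0.09, and the CYTO effect above 0 in 75, with a median of 0.04, while none was called. The all-gene medians had the same signs, -0.06 for TS and 0.12 for CYTO. Members of a library share its scaling, so such counts of direction are not independent, and the core means overlapped: 10.74, 10.74 and 10.90 with CYTO against 10.53, 10.84 and 10.89 with TS/CYTO. RPL41 had the smallest p for TS there, at -0.15 ± 0.06 (limma adjusted p = 0.503).

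In day 16 nodes the core medians were -0.16 for PD1, 0.19 for CYTO and -0.31 for TS, and 0.10, 0.03 and -0.05 without the 3 nodes that stood apart. The PD1 effect thus changed sign. RPL39L had the smallest p for PD1, at 2.21 ± 0.76 (SE; limma adjusted p = 0.508), and its values of 5.14, 8.02 and 4.64 in the 3 nodes make up the 3 highest. Without those nodes 41 of 83 members were at an unadjusted p under 0.05 for PD1 and 0 were called, beside 1958 of 12275 genes at such a p and 1 called. The smallest p were those of RPL24, a protein of the large subunit at the subunit interface, at 0.16 ± 0.03 (limma adjusted p = 0.0949) and RPL10, which is needed to join the subunits, at 0.16 ± 0.03 (0.0982). RPL24 was at 9.85, 9.86 and 9.89 in Isotype nodes and at 10.05 and 10.06 in the 2 PD1 nodes that remained.

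The tumors differed among themselves by storage. Of 83 members 15 were called between the 4 fresh-frozen and 14 RNAlater tumors, 9 higher and 6 lower in fresh-frozen tumors, beside 15% of all genes, of which 79 were higher and 1560 lower. The core median was 0.08 against -0.40 over all genes. RPS14 was at 11.51, 12.46, 12.86 and 12.87 in fresh-frozen tumors and ran from 10.73 through 11.06 to 11.51 in RNAlater tumors. The 2 groups touched at 11.51, and the difference was 1.29 ± 0.17 (SE; limma adjusted p = 0.0216). RPL9 was higher in fresh-frozen tumors by 1.01 ± 0.18, RPS3 by 0.76, RPS18 by 0.65, RPL5 by 0.61 and RPL11 by 0.50. The other 3 higher members were RPL19 at 0.43, RPL22 at 0.42 and RPS9 at 0.38. RPL29 was lower, at -0.55 ± 0.12, with 6.15, 6.60, 6.73 and 6.82 in fresh-frozen tumors and 6.77 through 7.20 to 7.78 in the others, with a narrow overlap. RPL14 was at -0.52, RPL23 at -0.42, RPL4 at -0.41, RPL23A at -0.35 and RPL21 at -0.32. The count of 15 was 0 without the Isotype tumor of mouse 01, which is fresh-frozen, and 28 without the RNAlater tumor of mouse 59 (TS/PD1/CYTO). The calls over all genes in these fits are not given here. With no filter 1 member was called, beside 2 of 16835 genes. The Isotype tumor of mouse 01 had the highest member share of the tumors, 35.7% of all TPM, and their lowest all-gene median, 2.48.

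RNA integrity numbers averaged 6.14 in tumors (4.5 to 7.8), 7.96 in spleens, 7.33 in 17 day 16 nodes and 6.59 in day 23 nodes. In spleens 6 of 82 members had a slope on RNA integrity, all downward, beside 6.09% of all genes. They included RPL22L1 at -0.18 ± 0.04 per unit (limma adjusted p = 0.0209), RPS7 at -0.19, RPL35A at -0.16, RPS27A at -0.13 and RPL22 at -0.13. Over all genes the calls ran mostly the other way, with 672 upward and 9 downward (0.0805%). With arm as a further term 0 members and 0 genes were called. In tumors, day 16 nodes and day 23 nodes 0 members were called, beside 0% of all genes in each, and 32, 34 and 0 of 83 members were at an unadjusted p under 0.05. The same held for 4306 of 10913 genes in tumors, 3970 of 12393 in day 16 nodes and 1933 of 12203 in day 23 nodes. Across the 76 core members the tumor slope on RNA integrity rose with log2 transcript length (Pearson's r = 0.40, Spearman's rho = 0.42, a description across genes of the same libraries). The tissue differences had r between -0.19 and -0.11 with length.

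Tumor volume ran from 181 to 2198 mm3 in the mice with a tumor library. Per doubling of volume, 2 members rose and 1 fell in tumors, beside 11% of all genes called, 30 upward and 1166 downward. These members were RPS23, a decoding site protein, at 0.13 ± 0.04 (limma adjusted p = 0.0301), RPS27 at 0.21 ± 0.06 (0.0454) and RPS4XP3 at -0.32 ± 0.08 (0.0169). The core median slope was 0.08, against -0.12 over all genes, and 64 of 76 core slopes were above 0. Without the batch term, and with arm as a further term, 0 members were called in tumors. In spleens 9 of 82 members were called, beside 39.7% of all genes, which stands beside 11% of the members. After rescaling, with no filter and with arm as a further term 0 members and 0 genes were called. The 8 that fell included RPL30, RPL4, RPS29, RPL10, RPS27 and RPL13, and ran from -0.12 for RPS27 to -0.06, and RPS27L rose by 0.09 ± 0.04 (limma adjusted p = 0.048); RPS29 turns to 0.03 under quantile normalization. In the same spleens 12 of 15 proliferation genes rose with volume, and their part in the slopes was not tested. In day 16 nodes and in day 23 nodes 0 members were called, beside 0% of all genes in both, and none was at an unadjusted p under 0.05. Without the 3 day 16 nodes that stood apart 0 members were called beside 7.47% of all genes.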

How the data were processed

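Paired-end stranded libraries of polyadenylated RNA from 72 tissue samples were analysed. Per the submitters' processing notes, bcl2fastq 2.20, STAR and RSEM 1.3.0 were used with mm10; the annotation release is not given in the sources used here. The deposited values are log2 levels of TPM with a pseudocount of 1, given by the authors to 2 decimals in a single matrix, and the smallest of them, 0.01, is called the floor. Read numbers cannot be recovered from TPM: library depth is unknown, and only the spread between mice gives the precision.

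Columns were matched to labels by library name. Differences were fitted with limma 3.58.1 (R 4.3.3; trend and robust empirical Bayes, two-sided) over all genes above the floor in at least 3 fitted libraries, with Benjamini-Hochberg adjustment at 5%. Tissue and day comparisons used 24 group means of all 72 libraries; arm effects used the 18 libraries of a tissue and day, with batch as a term in tumors. Same-numbered mice gave both node and spleen on day 23 (18 mice) or all tissues (14 mice), so mouse was the pairing block in an alternative fit, with an estimated correlation of 0.13 within mice. The fits were tested on simulated data. Positions came from GENCODE M21 (GRCm38) and start windows from RefSeq GRCm38.p6. Other alternatives were scalings, the pseudocount, filters, covariates and leaving out libraries. The members, marker and pathway lists were chosen with earlier results of these data known. Named in every tissue were the stalk genes, paralog pairs, RPSA, RPS6 and RPL3, the 5 highest and 5 lowest members, the 6 largest differences each way and the 6 farthest from the median, and for other comparisons the 4 smallest p each way. RPS13, RPS24, RPL5 and the volume, storage and spread examples outside that rule were named after their values were seen. Some members the rule names are not reported here by name.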

Additional observations from a re-analysis of the deposited data

Results flagged for a closer look

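Among the members described by storage, RPL23A was the 1 case in which a sample lay far from the rest of its group: the 4 fresh-frozen tumors had levels of 11.85, 12.03, 12.06 and 12.06, and the lowest is separated from the others by most of the group's range. Chance gives such a gap in about 1 of 20 groups, and 15 members were looked at.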

How the results depend on the processing

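Depth is unknown and arms hold 3 mice, so small arm effects could not be seen. Counts are of members called. For the fits that leave out 1 library the calls over all genes are not given here. Those counts are therefore not read as particular to the members. Leaving out 1 library at a time gave 75 to 78 for tumor against node, 73 to 79 for spleen against node, 83 for tumor against spleen, 0 to 2 for day, 0 to 28 for storage, 0 to 22 for RNA integrity in tumors (22 without PD1 mouse 28), 0 to 32 for volume in tumors (0 without TS/PD1/CYTO mouse 59, 32 without PD1/CYTO mouse 38), 0 to 57 for RNA integrity in day 16 nodes (57 without PD1/CYTO mouse 24), 1 to 12 for RNA integrity and 0 to 29 for volume in spleens, and, without TS/PD1/CYTO mouse 58, up to 6 for TS and 2 for any arm in spleens. With the mouse as replicate block, the paired fit gave 77, 77, 83 and 1 for the 3 tissue comparisons and day, and it was run on no other comparison. RNA integrity as a covariate also gave 1 for day. Quantile normalization gave 36 for spleen against node (31 higher), 55 for tumor against spleen, 5 and 1 for RNA integrity in tumors and spleens, and 1 and 2 for volume. Over all genes it called 801 of 10913 and 406 of 11184 for these RNA integrity slopes, and 797 and 2103 for volume. Rescaling gave 63 (62 higher) for spleen against node, 10 for RNA integrity and 0 for volume in spleens. For these slopes 1511 and 0 of 11184 genes were called. Centring on the core, which removes their common shift by construction, gave 62 (30 higher), 34 (20 higher) and 64 (31 higher) for the tissues. No filter gave 1 for storage, 1 for volume in tumors, 2 for RNA integrity and 0 for volume in spleens. Over all 16835 genes the counts were 2, 810, 355 and 0. A stricter filter gave 7 and 1 for RNA integrity and volume in tumors, beside 606 and 486 of 5456 genes. Without the batch term volume in tumors gave 0, and with arm as a term volume in tumors and both slopes in spleens gave 0. The cause was not tested for these except centring. Only some of the named genes were followed singly, each called on the deposited values, so the reversals listed are not complete. Followed genes that reversed for tumor against node were RPSA -0.12, RPS6 -0.16 and RPL22 -0.11 under quantile normalization, and RPLP1 -0.0087, RPLP2 -0.084, RPSA -0.25, RPS6 -0.34, RPL22 -0.43 and RPL3 -0.054 on centring. For spleen against node 75 members were called lower on the deposited scale and 62 higher after rescaling. The followed genes that reversed there were RPL22 0.11, RPL22L1 0.16 and RPS19BP1 0.83 (quantile), RPL22 0.37, RPL22L1 0.44, RPS27 0.044, RPL39 0.24 and RPS19BP1 0.50 (rescaled), and RPL22 0.11, RPL22L1 0.18 and RPS19BP1 0.27 (centred). For tumor against spleen, RPL22, RPS27, RPL7L1, RPS14 and RPS29 were at -0.22, -0.46, -0.14, -0.41 and -0.22 (quantile), -0.18, -0.30, -0.39, -0.13 and -0.075 (rescaled), and -0.54, -0.66, -0.76, -0.49 and -0.43 (centred). The volume slope of RPS29 in spleens was 0.034 under quantile normalization. A pseudocount of 0.1 changed no call of a followed gene. The counts of members moved from 15 to 17 for storage, from 9 to 8 for volume in spleens and from 76 to 75 for spleen against node.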
